A study of Salmo salar with 12 samples.

Results

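The probes for spectrin, adducin and actin, which are 3 of the 55468 salmonid probes of the array, were examined in liver of juvenile (parr) Atlantic salmon. They were probe CUST_10326_PI426552878 (SPTAN1, αII-spectrin; designed on contig 5625695), probe CUST_4129_PI426552878 (ADD1, α-adducin; contig 5439829) and probe CUST_11381_PI426552878 (an actin; contig 5628952). The last one was listed as Actc1 in the salmon annotation of the study and as ACTG1 in its mammalian ortholog list, so it is called the actin probe here. All 3 were chosen by their fold changes and corrected p-values against the control, with which the study listed them as changed, and their differences from the control are therefore given as a description, with standard errors and counts of calls but no p-values. Fish were kept for 48 h, unfed and in the dark, in lake water with 0 (control), 0.25 (low), 0.5 (medium) or 1.0 mg/L (high) of dissolved depleted uranium (U), given as uranyl acetate dihydrate. Liver RNA of 3 fish per group was hybridised in 1 colour to 12 arrays. The fish of a group shared an exposure tank as far as the methods describe it, so dose and tank cannot be told apart, and the spread given is that between single fish.

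Spectrin is a long, flexible tetramer of α and β chains that lines the inner face of the plasma membrane. Short actin filaments tie the spectrin tetramers into a network, and adducin caps the fast-growing end of those filaments and helps spectrin bind to them. This membrane skeleton supports cell shape, membrane stability and the placing of membrane proteins, and in mammalian liver αII-spectrin is the common non-erythroid α chain. Cytoplasmic actin also builds the cortex beneath the hepatocyte membrane and around the bile canaliculi.

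The 75th percentile of probe intensity was 113 to 138 on low U arrays, 122 to 154 on medium U arrays, 68.8 to 94.7 on high U arrays and 55.7 to 73.8 on control arrays, so the arrays themselves differed in brightness with the groups. For comparison between groups, log2 intensities were expressed as the distance from the array's 75th percentile (scaled log2 intensity), and the values without scaling are given beside it wherever the order of the groups depends on it. Each of 3 slides carried 1 array of every group. In the table of log2 values the authors deposited, 6 of the 12 arrays carried another replicate number than in their scanner files, always within the same group, and the table's number equalled the slide on all 12 arrays. Replicates are numbered here as in the scanner files, and no group changed. None of the 41 marker symbols of hepatocytes, skeletal muscle and erythrocytes had a named probe here, so the tissue label was not checked.

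On the scaled values the 3 probes did not move together. In whole liver, fewer cells of a type and less RNA per cell cannot be told apart. SPTAN1 was lower than the control on all 9 exposed arrays, ADD1 was higher on all 9, and the actin probe had surrogate values, in place of measured ones, on all 9 exposed arrays, of which 8 were below every control array. Of 29288 probes tested with a value on every array, 5.65% were lower on all 9 exposed arrays and 8.45% were higher. SPTAN1 and ADD1 passed the filter on dim probes, which asked for a clear signal on each array of some group, and were among the 29456 probes tested, and the actin probe was not. In limma, 2 of the 2 probes tested were called (adjusted p under 0.05 and at least 1.5-fold) under low U, where 6.23% of all probes tested were called, 2 of 2 under medium U (11.6% of all), 0 of 2 under high U (3.71%) and 2 of 2 over all exposed arrays (13.4%). These contrasts chose the probes, and nothing is read from the counts. The low U call was lost without low U replicate 1, low U replicate 3 or control replicate 1 for SPTAN1 and without low U replicate 2 for ADD1. For SPTAN1 it was also lost without the filter on dim probes and in a fit of only the 2 groups. Under high U, ADD1 was called with slide as a block, after quantile normalization, relative to spike-in probes and in the authors' value table. In these settings 2036, 1111, 808 and 1112 of all probes were called under high U, in that order. The methods' one-way test with its Tukey step, rerun here on the scaled values at 0.05, called both probes under high U, among 843 probes. Nothing is read from these calls either. In the study's own lists SPTAN1 was tied at 2 doses and ADD1 at 3. The paper names this spectrin gene (as fodrin) among those regulated by low and medium U. Calls under other scalings differed too.

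**Figure D1:**
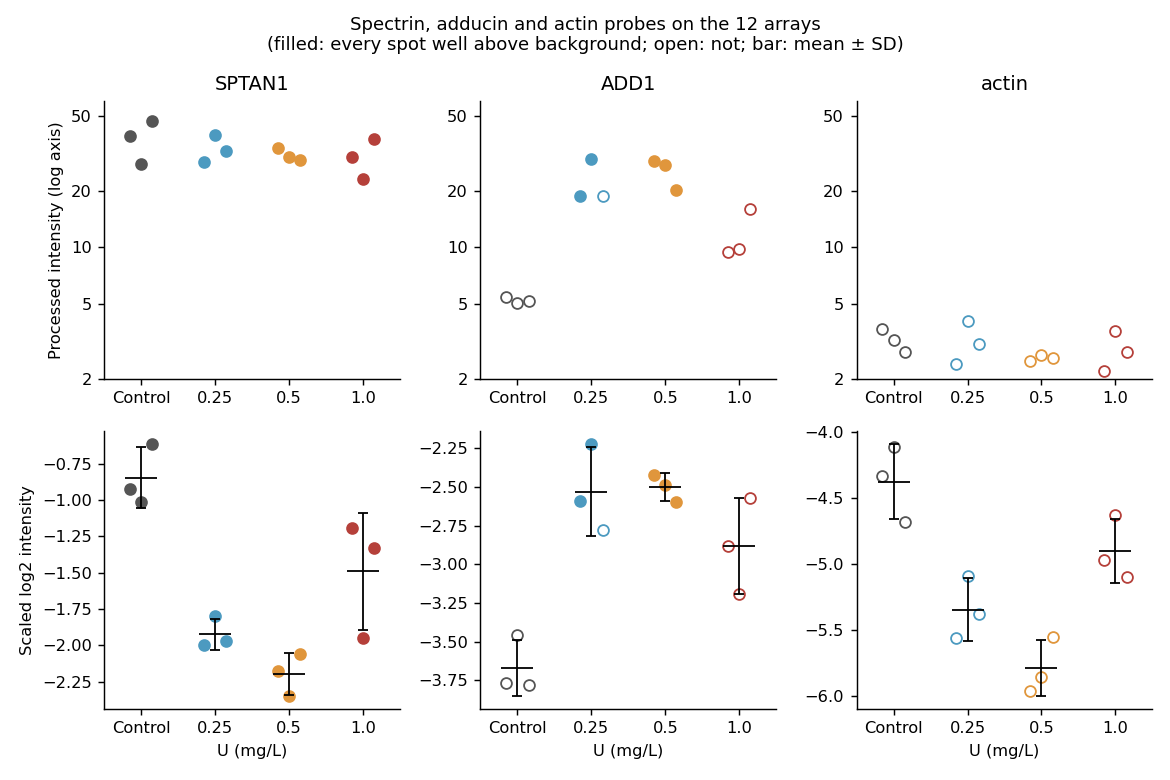
Intensity as deposited (upper row, log axis) and scaled log2 intensity (lower row) of the SPTAN1, ADD1 and actin probes by U concentration, 1 point per array, with the mean and SD of 3 arrays in the lower row. Filled points had every spot of the probe well above background, as on 12 of 12 arrays for SPTAN1, 5 of 12 for ADD1 and 0 of 12 for actin.

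SPTAN1, the α chain of the spectrin network, was well above background on all 12 arrays, so it had the firmest signal of the 3. Its single spot had intensities of 28.2, 39.7 and 32.5 under low U, 33.8, 30.1 and 29.1 under medium U, 30.1, 23.0 and 37.8 under high U, and 39.0, 27.7 and 46.6 in the control. Before scaling the groups overlapped, and only 1 of the 9 exposed arrays, a high U array, lay below all 3 control arrays. Relative to the 75th percentile of each array, SPTAN1 had scaled log2 intensities of -2.0, -1.80 and -1.97 under low U, -2.18, -2.35 and -2.06 under medium U, -1.19, -1.95 and -1.33 under high U, and -0.92, -1.01 and -0.61 in the control. On this scale no exposed array reached the control range, and the medium U arrays were the lowest.

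The limma difference of SPTAN1 from the control (log2, SE 0.22 for each dose) was -1.07 under low U, or 2.11-fold lower. Under medium U it was -1.35, or 2.55-fold lower, and high U gave -0.64, or 1.56-fold lower. Over all exposed arrays it was -1.02 (SE 0.18). Its direction held under each scaling tried, but its size did not: the same difference was -0.38 (SE 0.21) relative to 7 spike-in probes, spiked in as a constant quantity of RNA, and -0.24 (SE 0.23) without scaling, and SPTAN1 was not called at any dose on either scale. Of the probes tested, 8.27% were lower in exposed than in control liver without scaling. Against the control array of the same slide, SPTAN1 was lower in 9 of 9 pairs after scaling, by -1.45 to -0.18. That count was fixed in advance, since every exposed array lay below every control array on this scale. The pairs also reuse the same control arrays. Without scaling SPTAN1 was lower in 6 of 9 pairs.

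ADD1, the adducin subunit found in most tissues, was measured by 2 spots of the same probe, and the spots did not behave alike. Spot 1 had intensities of 13.5, 34.1 and 14.7 under low U, 26.8, 27.2 and 22.0 under medium U, 9.57, 5.05 and 13.3 under high U, and 11.0, 9.63 and 10.7 in the control. On this spot the control lay within the range of high U, and the low and medium U arrays were all above it. Spot 2 had 25.8, 25.7 and 23.4 under low U, 30.7, 27.3 and 18.3 under medium U, 9.18, 18.9 and 19.3 under high U, and 2.64, 2.67 and 2.50 in the control. Every exposed array was above every control array there, and the 3 control values were below the scanner software's significance limit and carried a surrogate value in place of a measured one.

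**Figure D2:**
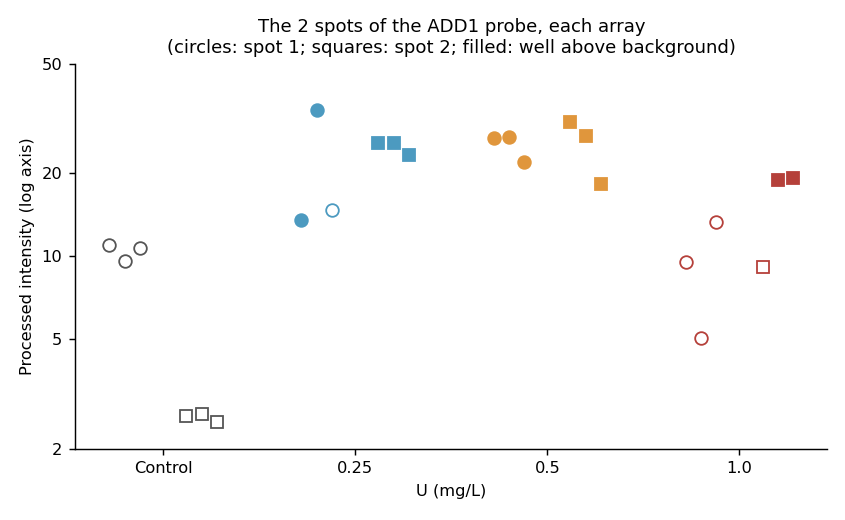
Intensity (log axis) of spot 1 (circles) and spot 2 (squares) of the ADD1 probe on each array by U concentration, with filled symbols for spots well above background. Spot 2 lay between 2.50 and 2.67 on the control arrays, where spot 1 lay between 9.63 and 11.0.

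The gap between the ADD1 spots (spot 1 minus spot 2, mean log2) was -0.40 under low U, 0.02 under medium U, -0.80 under high U and 2.01 in the control. A gap at least as large as that in the control was seen in 0.192% of the 5739 probes with 2 spots, and the median gap of such probes in the control was 0.19. These probes were of any brightness. The share among probes as dim as ADD1, whose spot 2 carried surrogates in the control, was not computed. With spot 1 alone the scaled difference from the control was -0.06 under low U, 0.18 under medium U and -0.61 under high U. With spot 2 alone it was 2.34, 2.16 and 2.20 at the same doses. No ADD1 spot was well above background on any control array, while 5 of 6 spots were under low U, 6 of 6 under medium U and 2 of 6 under high U, so the probe passed the filter through medium U alone.

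With both spots averaged, ADD1 had scaled log2 intensities of -2.53 ± 0.28 under low U, -2.50 ± 0.09 under medium U, -2.88 ± 0.31 under high U and -3.67 ± 0.19 in the control (SD, n = 3 each). Its difference from the control was 1.14 (log2, SE 0.21) under low U, 1.17 (SE 0.21) under medium U, 0.80 (SE 0.21) under high U and 1.04 (SE 0.17) over all exposed arrays. The control level was not well above background, so these differences are uncertain in size. Against the lowest signal well above background on each control array, averaged ADD1 was 1.03-fold higher under low U and 1.04-fold higher under medium U. Under high U it was not higher. On the unscaled intensities these folds were 1.94, 2.24 and 1.01. They are not firm lower limits. Spot 1 read 10.7 on control replicate 3 without being well above background, and the lowest such signal on that array was 10.5. Unscaled, ADD1 was likewise above all control arrays on 9 of 9 exposed arrays, as were 18.1% of the probes, whereas 0.167% were below them on all 9. ADD1 was higher than the control array of its slide in 9 of 9 pairs, by 0.58 to 1.28 after scaling and by 0.86 to 2.55 without. That count was fixed in advance, since every exposed array was above every control array on both scales.

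The direction of ADD1 depended on the processing. Over all exposed arrays the difference was 1.68 (log2) relative to the spike-ins and 1.82 without scaling, but -0.15 (SE 0.07) when normexp with an offset of 50 was applied to the median spot brightness in place of the processed intensity. That setting changes the brightness measure, the background correction and the surrogates together, and which of them turns the sign was not tested.

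**Figure D3:**
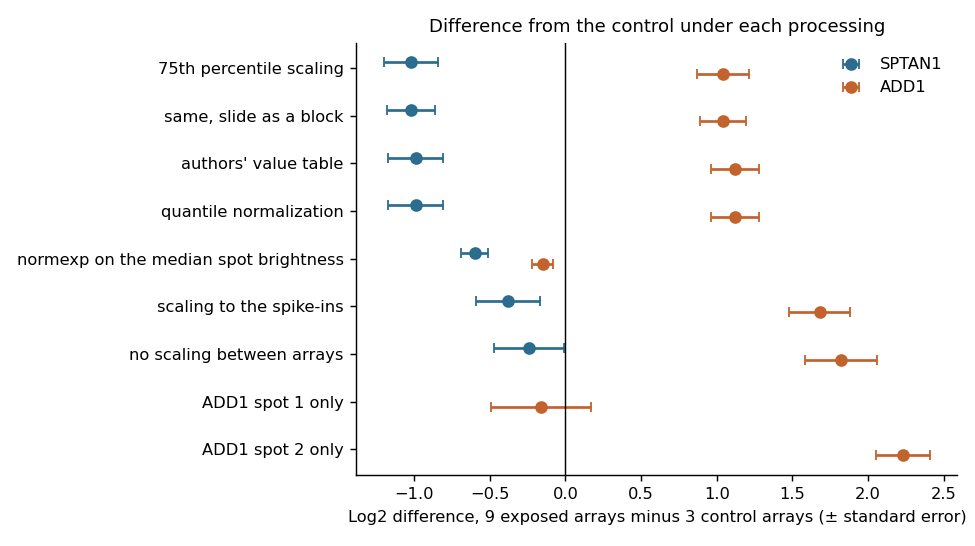
Log2 difference of SPTAN1 and ADD1 between the 9 exposed and the 3 control arrays, with its standard error, under a selection of the settings tried. In the 7 settings plotted for it SPTAN1 lies below 0, between -1.02 and -0.24, whereas ADD1 lies at -0.16 with spot 1 alone, -0.15 after normexp and 2.23 with spot 2 alone.

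The actin probe had 1 spot, which was not well above background on any of the 12 arrays, so no fold change is given for it. Its intensities were 2.39, 4.06 and 3.06 under low U, 2.47, 2.66 and 2.59 under medium U, 2.20, 3.60 and 2.77 under high U, and 3.68, 3.22 and 2.78 in the control. The spot was above the software's significance limit on 3 of 3 control arrays and on 0 of 9 exposed arrays, where its values are surrogates and have no order. The share of all probes with such a split is not given here, so no loss of signal is read from it. The raw spot brightness minus the local background was 3 to 11.5 over the exposed arrays and 7.5 to 15 over the control arrays, and these ranges overlapped.

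Scaled log2 intensity of the actin probe was -5.34 ± 0.24 under low U, -5.79 ± 0.21 under medium U, -4.90 ± 0.24 under high U and -4.37 ± 0.29 in the control (SD, n = 3 each). Probes that were well above background on no array (16722 in all) had, over all exposed arrays, a median scaled difference of -0.50 (log2) from the control, with 93.6% of them lower. Without scaling, 11% of these probes were lower and their median difference was 0.28. By dose the median scaled difference of these dim probes was -0.55 under low U, -0.96 under medium U and -0.08 under high U. Unscaled, the surrogate values of the actin probe were below all control arrays on 6 of the 9 exposed arrays and above them on 1.

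The doses were also compared with each other. The listing that chose the probes rested on a one-way test over the 4 groups, which draws on differences between doses too, so the p-values given here are not independent of the choice. None of the 3 pairs of doses had a probe called among the 29456 tested in limma (unadjusted p under 0.05 with the fold minimum in 406, 1285 and 1012 probes for medium against low, high against medium and high against low U), and the background of calls is 0% in each. SPTAN1 was higher by 0.71 (log2, 95% interval 0.23 to 1.19) under high U than under medium U, with an adjusted p of 0.681 in limma. It was higher on all 3 slides (0.40, 0.99 and 0.74). That count was fixed in advance, since every high U array lay above every medium U array on this scale. By the methods' one-way test with its Tukey step this pair was past the threshold, but relative to the spike-ins the difference was -0.05 and without scaling -0.06. Medium U differed from low U by -0.28 (-0.75 to 0.20) and high U from low U by 0.43 (-0.05 to 0.91), with adjusted p of 1 and 0.891 in limma. The scaled SPTAN1 level was thus lowest under medium U and nearest to the control under high U, a dose shape that was not resolved by the limma test and not present in the unscaled intensities.

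For ADD1, medium U differed from low U by 0.03 (log2, 95% interval -0.44 to 0.49) and high U from medium U by -0.37 (-0.84 to 0.09). ADD1 entered the fit through its signal under medium U, which is on one side of both comparisons. They are therefore a description and no p-value is given for them. High U differed from low U by -0.35 (-0.81 to 0.12), with an adjusted p of 0.891 in limma. High U lay below medium U on 2 of 3 slides, by -0.69 and -0.46, and was 0.03 above it on slide 3. Relative to the spike-ins the ADD1 difference between high and medium U was -1.13 (log2), and without scaling it was -1.14. These values are a description too, for the same reason. On those scales 12877 and 10175 probes were called between these doses, nearly all of them lower under high U. The single ADD1 spots went different ways, with a high U minus medium U difference of -0.78 on spot 1 and 0.04 on spot 2.

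Co-variation was computed over the 9 exposed arrays for the 3 pairs of probes, by two-sided exact permutation of the pairings. The correlations of the actin probe are not reported, since all 9 of its values there are surrogates. SPTAN1 and ADD1 had Pearson r = -0.22 (exact p = 0.577, adjusted p = 0.577 over the 3 pairs) and Spearman rho = -0.33 (exact p = 0.385, adjusted p = 0.385), and r was -0.09 without the 2 arrays farthest from the SPTAN1 median. No relation was detectable on this scale, and its sign depended on the processing. With each dose centred on its own mean r was 0.62 (adjusted exact p = 0.226) and without scaling 0.57 (adjusted exact p = 0.325). After normexp on the median spot brightness r was 0.94 (adjusted exact p = 0.000777). There both probes carry the offset of 50 and have the same percentile of their array taken off. The main values have their array's percentile taken off in the same way. A part shared through the array cannot be told apart from co-variation in either setting. Neither the main r nor the one after normexp is therefore read as co-variation.

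SPTAN1 and ADD1 were also set against the brightness of their array. For ADD1 this is a description, since it entered the fit through its signal under medium U, whose arrays were among the brightest. No p-value is therefore given for ADD1. For SPTAN1 the permutation treats the 9 exposed arrays as exchangeable, although their brightness differed between doses. Its p-values are thus not independent of the choice of the probes. Unscaled ADD1 rose with the 75th percentile of the array over the 9 exposed arrays (r = 0.94, rho = 0.88). Its slope was 1.5 log2 units per log2 unit, and r was 0.90 without the 2 arrays farthest from the median brightness. The share of all probes that rose in this way is not given here. SPTAN1 had r = 0.33 (exact p = 0.382, adjusted p = 0.572 over 3 relations) and rho = 0.33 (exact p = 0.385, adjusted p = 0.578). The slope of SPTAN1 was 0.20, and its r was -0.10 without the 2 farthest arrays. A difference between these correlations was not tested, and the third relation computed, with the actin probe, rests on surrogate values and is not reported. By construction, a probe whose intensity changes little between arrays takes on the array's 75th percentile with the opposite sign when it is scaled. The low and medium U arrays were brighter than the high U arrays, so brightness and dose cannot be told apart here.

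**Figure D4:**
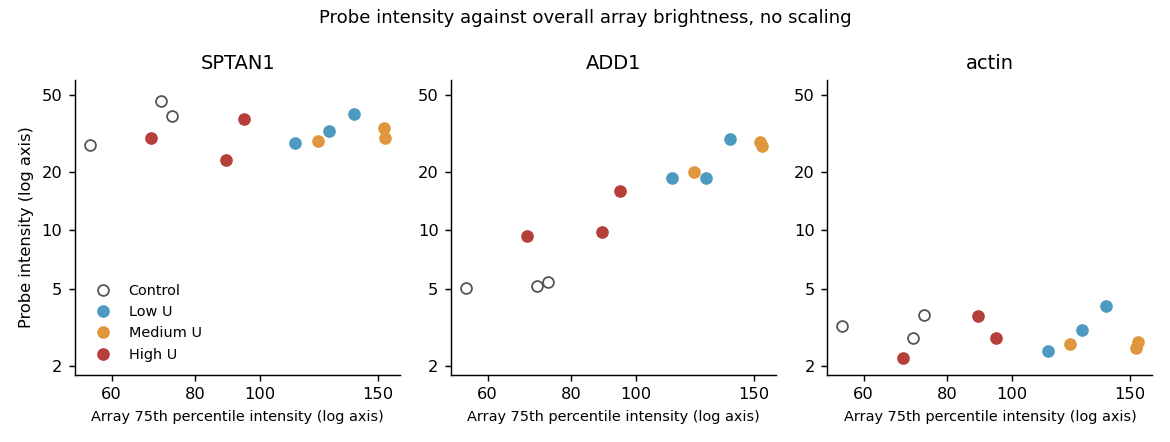
Unscaled intensity of each probe against the 75th percentile intensity of its array (both log axes), 1 point per array, coloured by group with open points for the control. Over the 9 exposed arrays r was 0.94 for ADD1 and 0.33 for SPTAN1, and the actin points of those arrays are surrogates.

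Other genes of the cytoskeleton were taken from lists of 108 symbols. Of these, 17 probes had a name, and since names reach only probes that the study listed as changed, their share of calls says nothing about the pathway. Of those 17 probes, 3 carried different symbols in the study's lists (the actin probe among them) and FLNA had too little signal to be tested, which left SPTAN1, ADD1 and 11 others. Over all exposed arrays, 5 of the 11 were called higher and 5 lower in limma, where 7.96% of all probes tested were called higher and 5.45% lower. ARPC3, among those called higher, passed the filter through exposed groups alone. The median difference of the 11 was 0.52 (log2), against 0.04 for all probes tested. It is the value of CAPZB, as 6 of the 11 were higher and 5 lower, so no shift of the set is read from it.

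Within the spectrin and adducin list, both ADD3 probes, for the γ subunit that pairs with α-adducin, were lower in exposed liver, while ADD1 was higher with its spots averaged. The ADD3 probe CUST_4702 had a scaled difference of -0.88 (SE 0.16) over all exposed arrays and CUST_7787 had -1.18 (SE 0.19). Both were below all control arrays on 9 of 9 exposed arrays after scaling. So were 5.65% of the probes tested with a value on every array. Unscaled, these ADD3 differences were -0.10 and -0.39. Unlike ADD1, both ADD3 probes were well above background on all 12 arrays, with intensities of 42.0 to 89.2 in exposed and 62.0 to 85.8 in control liver for CUST_4702. For CUST_7787 they were 46.7 to 84.3 in exposed and 79.8 to 84.0 in control liver.

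Among the actins, act-2b (described as actin 2b) was 1.64 (log2, SE 0.18) higher over all exposed arrays and was called at each dose. Its intensities were 1980 to 6720 (median 4060) in exposed and 502 to 1080 (median 774) in control liver, with no overlap. Without scaling, 18.1% of the probes tested with a value on every array were likewise higher on all 9 exposed arrays. Of the proteins that cap or branch filaments, ARPC3 and Arpc5l, subunits of the Arp2/3 complex that starts filament branches, were higher by 1.19 (SE 0.13) and 0.90 (SE 0.17). ARPC3 was well above background on 9 of 12 arrays and on no control array, where it read 7.18 to 9.74. It thus passed the filter through exposed groups alone, and its difference is uncertain in size. WASF2, an activator of the Arp2/3 complex, was lower by -1.40 (SE 0.18). CAPZB, the β subunit of the filament end capping protein, had 0.52 (SE 0.13) and was called under medium U only.

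RDX, which encodes radixin, a linker between actin and the membrane, was lower (-1.21, SE 0.17). Myl6, a non-muscle myosin light chain, was higher (1.07, SE 0.15), and MPRIP, which binds myosin phosphatase, was lower (-1.03, SE 0.15). TUBA1B, an α-tubulin, was higher (1.43, SE 0.17). For the 5 of these 11 that were lower, the direction was the same without scaling (-0.62 to -0.10). For the 6 that were higher it was fixed in advance, since leaving out the scaling raised each probe's difference by the same amount. No spectrin protease or adducin kinase of the list of 12 symbols had a named probe.

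**Figure D5:**
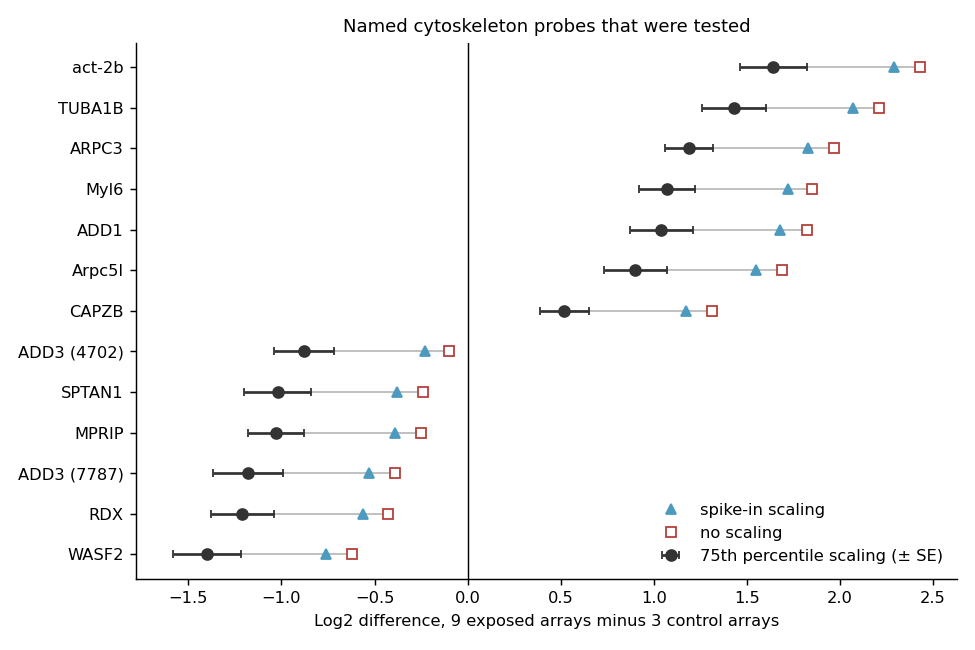
Log2 difference between the 9 exposed and the 3 control arrays for the 13 named cytoskeleton probes tested, after 75th percentile scaling (circles, with SE), relative to the spike-ins (triangles) and without scaling (squares). The 7 higher probes include ADD1 (1.04 after scaling) and the 6 lower ones include SPTAN1 (-1.02) and both ADD3 probes. No probe changes side, which for the 7 higher ones was fixed in advance, since each of the other scales shifts all differences upward alike.

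The likeness of pattern to SPTAN1 and to ADD1 was described by Pearson's r over the 12 arrays, which share dose and array brightness. It was taken among named probes tested with no missing value, and only probes that the study listed as changed have a name. The 12 arrays include the controls, so a large r cannot be told apart from a shared difference between exposed and control liver. For SPTAN1 the highest among 820 probes were USP7, a deubiquitinase (r = 0.97), GALNT8, a glycosyltransferase of the protein O-glycosylation family (0.96), and MPRIP (0.95), and the lowest was AIM1L (-0.96). MPRIP was the only one of these 4 in the cytoskeleton lists. For ADD1 the highest were MARCH6, a ubiquitin ligase of the endoplasmic reticulum (0.98), RPS6KL1 (0.97) and a probe with the symbol RBM20 (0.94). The study describes that last probe as matrin-3 isoform 2, so its gene is not settled. The lowest was AASS, an enzyme of lysine breakdown (-0.94). For the actin probe no likeness is given, since its values were surrogates on 9 of the 12 arrays.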

How the data were processed

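Liver RNA of 12 fish was measured on 1-colour Agilent arrays of 62976 spots. The authors extracted the scans with Feature Extraction (version 10.7) and deposited for each spot a processed intensity (background-subtracted, with a surrogate for spots below the significance limit, not scaled between arrays), the median brightness and the local background, all as intensity values. They also deposited a table of log2 values made with GeneSpring, whose normalization is not given in the sources used here. Its columns, with medians of -0.049 to 0.061, are centred per probe and followed quantile-normalized scanner values (lowest r per array 0.99 over 40059 probes, after matching columns to arrays).

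Here control spots were left out, outlier spots were set to missing, repeat spots were averaged as log2 values and each array's 75th percentile was taken off. Testing required all spots of a probe well above background throughout at least 1 group, and at least 2 values per group. Groups were compared by limma 3.58.1 in R 4.3.3 in 1 fit over the 4 groups, with Benjamini-Hochberg adjustment over 29456 probes. The methods print a threshold of 0.5, and 0.05 was used, with a minimum of 1.5-fold. Correlations used two-sided exact permutation (Python 3.11.15, scipy 1.17.1). The fit was tested on simulated data of 29456 probes, of which 200 had a log2 change of 2, and recovered 81% for exposed against control and 70.5% to 73% for single doses against control.

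Names came from tying the authors' fold changes in the study's gene lists to those computed from the value table (1954 of 1995 rows tied to 1 probe). The corrected p-values in the lists only served to group rows of a gene across doses, and those columns served no other purpose. The named genes were the 3 members, each cytoskeleton list probe with a name and, for SPTAN1 and ADD1 each, the 3 named probes with the highest and the 1 with the lowest r. Members and lists were chosen with earlier results of these data known. Samples with the same replicate number did not deviate together (r -0.267 to 0.472, over 0.1 in 6 of 18 pairs), whereas arrays of the same slide did in 15 of 18 pairs (r over 0.1). The number of arrays limits the precision. No sequences of the probes were used here. Some genes and 1 of the lists are not reported here.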

Additional observations from a re-analysis of the deposited data

How the results depend on the processing

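Scaling to the probes detected on all arrays, keeping outlier spots, the slide block and the filter changes left each difference of SPTAN1 and ADD1 within the spread between replicates (pooled SD 0.25 and 0.23 log2). Relative to the spike-ins, the difference from the control under low U, under medium U and over all exposed arrays was -0.36, -0.36 and -0.38 for SPTAN1 and 1.85, 2.16 and 1.68 for ADD1; high minus medium U was -0.05 and high minus low U -0.05 for SPTAN1, and high minus medium U was -1.13 for ADD1. Settings chosen after seeing the data were no scaling, normexp on the median brightness and single ADD1 spots. Without scaling, SPTAN1 was -0.16, -0.26, -0.31 and -0.24 (low, medium, high, all exposed) and ADD1 2.06, 2.27, 1.12 and 1.82, with high minus medium U at -0.06 and high minus low U at -0.16 for SPTAN1 and high minus medium U at -1.14 for ADD1. After normexp, SPTAN1 was -0.58, -0.85, -0.36 and -0.60 and ADD1 -0.14, -0.31, -0.01 and -0.15, and the ADD1 dose pairs were -0.17 (medium minus low), 0.30 (high minus medium) and 0.13 (high minus low). Spot 1 of ADD1 gave -0.06, 0.18, -0.61 and -0.16, with -0.78 for high minus medium U, and spot 2 gave 2.34, 2.16, 2.20 and 2.23, with 0.04 for that pair. The methods' test put SPTAN1, high minus medium U (0.71), past the threshold. Causes were not tested.

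The correlation of SPTAN1 and ADD1 over exposed arrays was 0.57 without scaling, 0.94 after normexp (adjusted exact p = 0.000777), 0.37 relative to the spike-ins and 0.62 with doses centred. Neither the value after normexp nor the main one is read as co-variation, since both probes share the array percentile taken off in each setting. Leaving out 1 array, the correlation in the main setting ranged from -0.41 to 0.00.

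Leaving out 1 array, ADD1 at medium minus low U ranged from -0.10 to 0.18; the others kept their direction, with SPTAN1 at -1.10 to -0.91 and ADD1 at 0.98 to 1.14 over all exposed arrays. With slide as a block, calls over all probes numbered 3646 under low U, 5188 under medium U and 2036 under high U, against 1834, 3411 and 1093 without it. With the replicate number as a block, SPTAN1 remained at -1.02 and ADD1 at 1.04 over all exposed arrays and no call changed, while calls over all probes under high U numbered 652, against 1093 without the block. Calls over all probes ranged over the settings from 1 to 17793 under low U, 1005 to 20611 under medium U, 162 to 2036 under high U and 1739 to 17103 for all exposed arrays. Normexp on the mean spot brightness was not run, since the scanner files used here hold the median spot brightness and no mean. With 3 arrays per group, probes near background are limited by the surrogate values.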
